A study of Homo sapiens with 11 samples.

Results

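The 9 mature microRNAs (miRNAs) described here come from 3 paralogous clusters of the human genome, each of which holds a miR-99 or miR-100 hairpin, a let-7 hairpin and a miR-125 hairpin. They were chosen by name, as all rows of hsa-miR-99a-5p, hsa-miR-99b-5p, hsa-miR-99b-3p, hsa-miR-100-5p, hsa-miR-125a-5p, hsa-miR-125a-3p, hsa-miR-125b-5p, hsa-miR-125b-1-3p and hsa-miR-125b-2-3p (hsa marks the human miRNA and is left out below), and make up 9 of the 2588 mature miRNAs listed. The question was which of the 3 clusters supplied these miRNAs in each of 6 cell lines derived from solid tumors.

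Small RNA was sequenced from A549 (lung cancer), ES2 (ovarian cancer), MV3 (melanoma), PANC1 (pancreatic cancer), BE(2)C (neuroblastoma) and HepG2 (liver cancer) cells, all parental lines without any knockdown or drug. There were 2 libraries for each line except PANC1, which had 1, and 11 libraries in all. Libraries of A549, ES2, MV3 and PANC1 were prepared with a NEXTflex kit from 50 ng of RNA, whereas those of BE(2)C and HepG2 were made by the provider Novogene, so that across these sets the preparation cannot be told apart from the line. Cells were taken 48 h after seeding, except that BE(2)C is given as 24 h in the treatment protocol and as 48 h in the sample characteristics. Each line is a single established line, and the methods call its libraries biological replicates without saying how the cultures were kept apart, so that the p-values below measure the spread between these libraries.

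MiRNAs are short RNAs that guide Argonaute proteins to partly complementary sites in mRNAs, which are then translated less or degraded. Pairing of the seed, the bases near the 5' end, largely selects the targets, and miRNAs with the same seed are therefore grouped as a family. The miR-99/100 family is best known for repressing mTOR and the insulin-like growth factor 1 receptor, and the miR-125 family, whose founder is lin-4 of the nematode, for repressing LIN28. In these clusters both lie beside a let-7 hairpin, an arrangement that is conserved among animals.

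The mature sequences are shown because the clusters can be told apart only by a few bases. They are the RefSeq sequences for GRCh38.p14, which were found for 9 of 9 miRNAs, written 5' to 3' with the seed (bases 2 to 8) in capitals. The 3 miRNAs of the miR-99/100 family, one from each cluster, share their seed.
miR-100-5p: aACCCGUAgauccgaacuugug
miR-99a-5p: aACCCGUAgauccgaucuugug
miR-99b-5p: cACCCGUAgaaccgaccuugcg
The miR-125 family has a common seed too, but miR-125b-5p is encoded at 2 loci with the same mature sequence.
miR-125b-5p: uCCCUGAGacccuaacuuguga
miR-125a-5p: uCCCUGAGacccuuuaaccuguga
The opposite (3p) arms listed here have seeds that differ from each other and from those above, and each arm marks a single locus.
miR-125b-1-3p: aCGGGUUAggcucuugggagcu
miR-125b-2-3p: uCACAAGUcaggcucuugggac
miR-99b-3p: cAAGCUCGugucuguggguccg
miR-125a-3p: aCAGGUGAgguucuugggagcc

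Counted from the 5' end, miR-100-5p and miR-99a-5p are separated by the single substitution A16U, whereas miR-99b-5p is reached from miR-100-5p by A1C, U11A, A16C and U21C. MiR-125b-5p (22 bases) and miR-125a-5p (24 bases) are identical over the first 13 bases. How the authors' counting treated a read that matches more than 1 of these miRNAs is not given in the sources used here. Among the 2281 listed names with a RefSeq sequence, the miR-99/100 seed occurred in these 3 miRNAs alone. The miR-125 seed was also found in miR-4319, which had 0 reads in each library, and the miR-99b-3p seed in miR-99a-3p, which reached 6.12 CPM (reads of a miRNA per 1000000 reads assigned to miRNAs in a library) in BE(2)C replicate 2.

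In the GENCODE v44 annotation of GRCh38, the first cluster lies in introns of the long non-coding RNA gene MIR100HG on the minus strand, with MIR100 at chr11:122152229-122152308, MIRLET7A2 at chr11:122146522-122146593 and MIR125B1 at chr11:122099757-122099844. The second lies in the long non-coding RNA gene MIR99AHG on the plus strand. It holds MIR99A at chr21:16539089-16539169 in an intron, and MIRLET7C at chr21:16539828-16539911 and MIR125B2 at chr21:16590237-16590325, which both overlap an exon of at least 1 transcript. The third lies in the protein-coding gene SPACA6 on the plus strand, with MIR99B at chr19:51692612-51692681 and MIRLET7E at chr19:51692786-51692864 in an intron and MIR125A at chr19:51693254-51693339 overlapping a UTR exon of at least 1 transcript. All 3 hairpins of the third cluster also lie opposite an exon of the antisense gene SPACA6-AS1. The first 2 clusters span 52.6 kb and 51.2 kb, the third 0.728 kb.

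**Figure D1:**
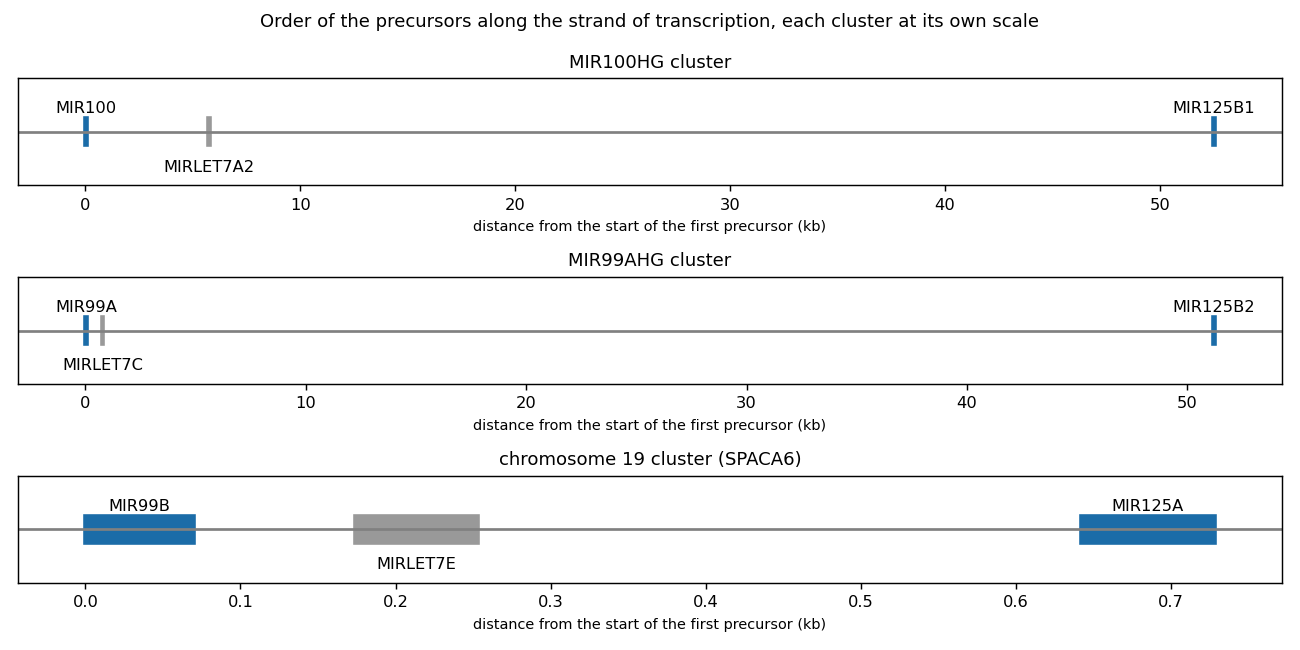
Distance in kb (x axis) from the start of the first precursor along the transcribed strand, one panel per cluster and each at its own scale. Blue boxes are the miR-99/100 and miR-125 precursors and grey boxes are let-7 precursors, and the 3 hairpins follow in the same order in each cluster, over 52.6 kb, 51.2 kb and 0.728 kb.

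Between 1173902 (MV3 replicate 1) and 12137452 (HepG2 replicate 2) reads per library were assigned to miRNAs, so that a count of 0 allows up to 2.56 and 0.247 CPM, respectively. Such limits and the intervals below account for counting error alone, because no molecular identifiers tell PCR copies from molecules. The most abundant miRNA took 64.2% to 75.3% of the reads in A549 (miR-21-5p) and HepG2 (miR-148a-3p), against 11.6% to 33.5% in the other lines, so that CPM of all other miRNAs depends on it. Shares and ratios of reads within a library do not, and they are therefore given before levels. BE(2)C replicates differed most, with a chi-square value, divided by its degrees of freedom, of 849 against 8.53 to 59.2 in A549, ES2, MV3 and HepG2. Of the marker lists, the neural miRNAs (miR-9-5p, miR-124-3p and miR-218-5p) summed to between 84656 and 105820 CPM in BE(2)C and to at most 2035 CPM in the other lines, and the liver miRNAs (miR-122-5p, miR-192-5p and miR-194-5p) to between 15835 and 16456 CPM in HepG2 and at most 4762 CPM elsewhere. Nearly all of the HepG2 sum was miR-192-5p (15859 CPM), and miR-194-5p was higher in A549 (1891 CPM) than in HepG2 (230 CPM, line means). The defining liver miRNA miR-122-5p was at only 64.0 and 50.0 CPM in HepG2 and at 823 CPM in BE(2)C replicate 1. The melanocyte miRNA miR-211-5p had 0 reads in every library, MV3 included, and the other melanocyte miRNA, miR-204-5p, was between 1.29 and 1.70 CPM in MV3. The pancreatic acinar miRNA miR-216a-5p had 0 reads in PANC1, and miR-217-5p was not analysed here. The epithelial miRNAs miR-200c-3p, miR-141-3p and miR-205-5p summed to 14.5 to 83.4 CPM over all libraries. The blood cell miRNAs (miR-142-3p, miR-223-3p and miR-451a) summed to 326 and 286 CPM in ES2, nearly all of it miR-142-3p, and to 301 CPM in replicate 1 and 46.5 CPM in replicate 2 of BE(2)C, nearly all of it miR-451a, with at most 4.21 CPM elsewhere.

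The cluster that supplied most of the miR-99/100 reads differed between the cell lines. MiR-100-5p, from MIR100HG, made up most of the family's reads in A549, ES2, MV3 and PANC1, miR-99a-5p, from MIR99AHG, in BE(2)C, and miR-99b-5p, from chromosome 19, in HepG2. MiR-100-5p thus led in every NEXTflex line and in neither Novogene line, so that for this part preparation and line cannot be told apart. Within one preparation the leading cluster differed only between BE(2)C and HepG2. In such bulk libraries, fewer cells with a miRNA and less of it per cell cannot be told apart. The share of miR-100-5p was 97.5% ± 0.0374 (SD, n = 2) in ES2, 90.2% ± 1.15 (SD, n = 2) in MV3 and 64.6% ± 1.05 (SD, n = 2) in A549. In the single PANC1 library it was 92.7% (95% Wilson interval 92.6 to 92.8%, of 365997 reads). In BE(2)C miR-100-5p held a share of 0.455% ± 0.264 (SD, n = 2), and miR-99a-5p held 86.5% ± 1.94 (SD, n = 2). In the other 5 lines the miR-99a-5p share lay between 0.109% and 1.22% (line means). MiR-99b-5p held 96.8% ± 2.29 (SD, n = 2) in HepG2 and 34.1% ± 1.15 (SD, n = 2) in A549, but only 1.85% ± 0.0179 (SD, n = 2) in ES2.

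In the miR-125 family, chromosome 19 led in A549 and HepG2. MiR-125a-5p, the chromosome 19 member, made up 85.8% ± 0.596 (SD, n = 2) of the family's reads in A549 and 94.1% ± 5.57 (SD, n = 2) in HepG2, although only 498 and 613 reads stood behind the latter. MiR-125b-5p, the product of the other 2 clusters, prevailed in ES2 with 77.3% ± 0.539 (SD, n = 2) and in BE(2)C with 58.8% ± 0.908 (SD, n = 2). In MV3 (51.1% ± 2.43 miR-125b-5p, SD, n = 2) and PANC1 (50.5%, Wilson interval 50.1 to 50.8%) both were nearly even.

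Reads of miR-125b-5p cannot be placed at MIR125B1 or MIR125B2. The deposited rows of the 2 loci each held 48.1% to 51.9% of its reads in the 9 libraries outside HepG2, which says nothing of their output. The 3p arms differ between the loci and were used instead. Summed, they stood at 748 CPM in BE(2)C, where miR-125b-5p was at 1250 CPM (line means). In MV3 they summed to 833 CPM, where miR-125b-5p was at 9388 CPM. Shares of 3p reads are thus not shares of miR-125b-5p by locus, which were not measured. MiR-125b-1-3p, from MIR100HG, made up 78.7% ± 4.59 (SD, n = 2) of the reads of both arms in A549, 90.1% ± 0.169 (SD, n = 2) in ES2, 88.2% ± 0.674 (SD, n = 2) in MV3 and 97.4% (Wilson interval 96.5 to 98.0%) in PANC1. In BE(2)C its share was 58.0% ± 1.48 (SD, n = 2), so that MIR99AHG supplied 42.0% of the 3p reads in the line where it supplied 86.5% of the miR-99/100 reads. HepG2 had 7 such reads in replicate 1 and 1 in replicate 2, too few for a share.

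**Figure D2:**
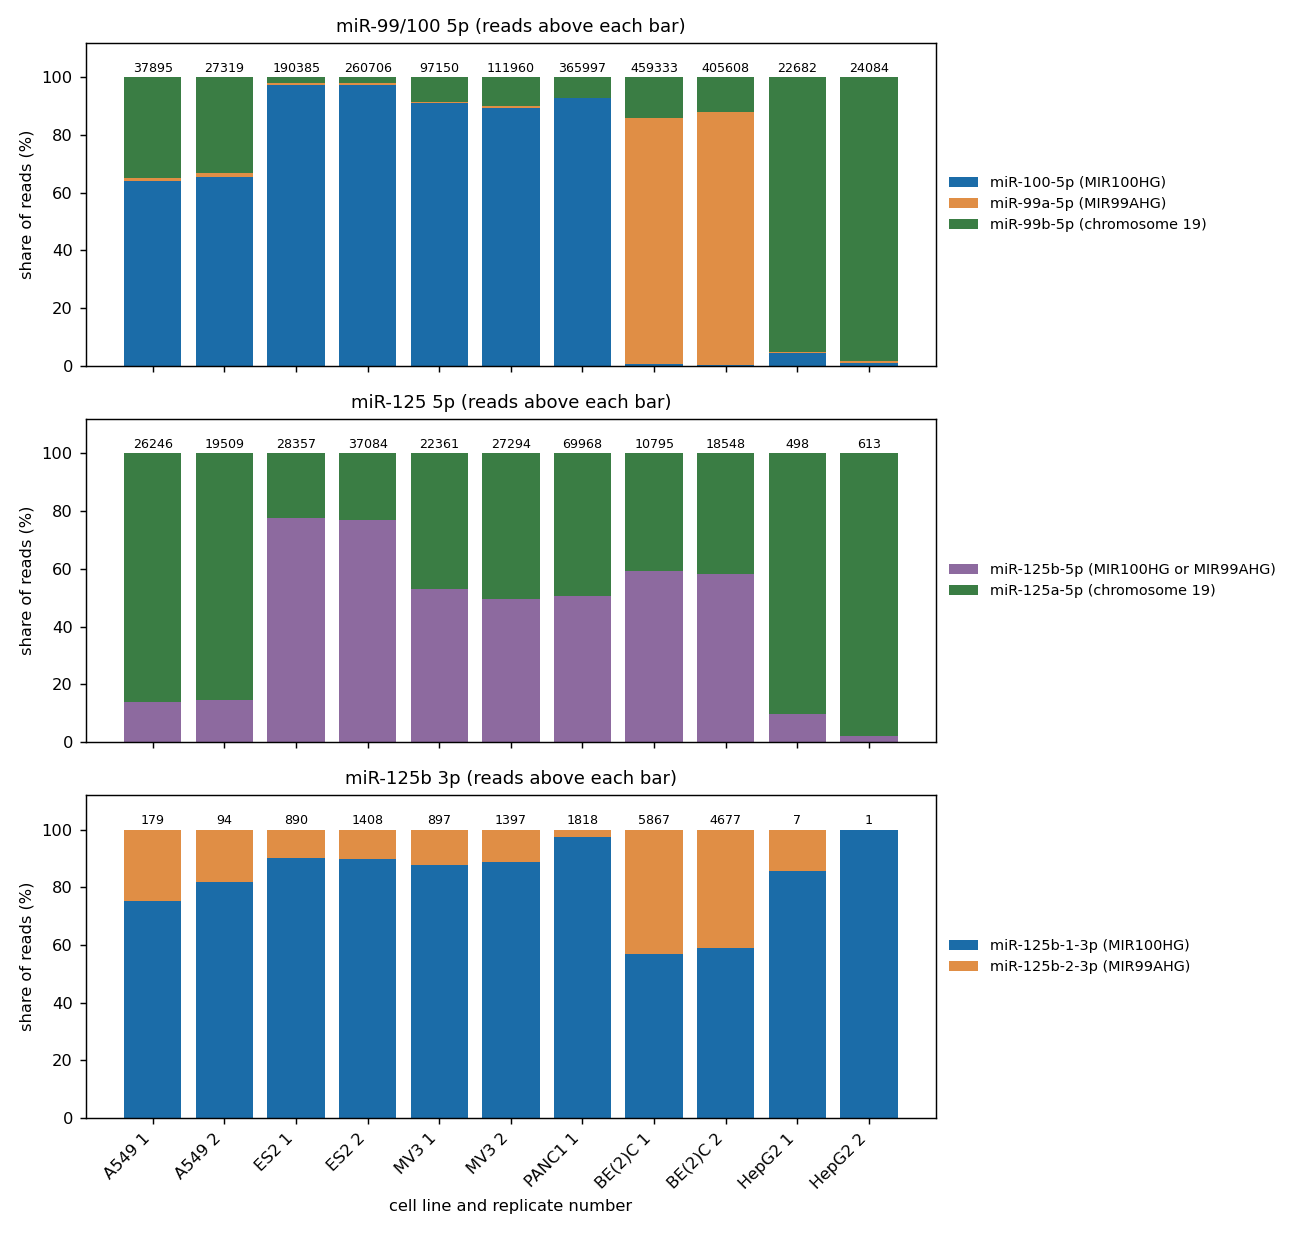
Share of the family's reads in percent (y axis) for each of the 11 libraries (x axis), for the miR-99/100 5p, miR-125 5p and miR-125b 3p groups, with the number of reads printed above each bar. Blue is MIR100HG, orange MIR99AHG, green chromosome 19 and purple MIR100HG or MIR99AHG, and the upper panel changes from mostly blue in A549, ES2, MV3 and PANC1 to orange in BE(2)C (86.5%) and green in HepG2 (96.8%).

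These differences were tested as ratios within each library, log2 of CPM plus 1 over CPM plus 1, for 7 pairs of members and 2 pairs of a member and its let-7 neighbor. Where counts are low, the added 1 makes such a ratio depend on the library total. An exact permutation test of the F statistic over all 10395 assignments of libraries to lines was used, with Benjamini-Hochberg adjustment over the 9 ratios. The ratio of miR-100-5p to miR-99a-5p ranged from a mean of 9.70 in PANC1 to -7.70 ± 0.917 (SD, n = 2) in BE(2)C, and it was 5.73 ± 0.0936 in A549, 7.15 ± 0.0416 in ES2, 7.15 ± 0.0102 in MV3 and 2.18 ± 1.58 in HepG2 (SD, n = 2 each; exact permutation test, adjusted p = 0.000649). The ratio of miR-99b-5p to miR-100-5p was highest in HepG2 with 5.43 ± 1.44 and lowest in ES2 with -5.72 ± 0.0145 (SD, n = 2 each; exact permutation test, adjusted p = 0.00115). The ratio of miR-125a-5p to miR-125b-5p was 2.60 ± 0.0706 in A549 and -1.77 ± 0.0443 in ES2 (SD, n = 2 each; exact permutation test over the 6 lines, adjusted p = 0.000649). MiR-125b-1-3p exceeded miR-125b-2-3p by 4.95 in PANC1 and by 0.47 ± 0.0875 in BE(2)C (SD, n = 2; exact permutation test, adjusted p = 0.000649), and HepG2 values of this ratio rest on 8 reads.

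All 9 ratios thus differed between the 6 lines beyond the spread between libraries, with adjusted p between 0.000649 and 0.0285 in the exact permutation test. Among the 4 NEXTflex lines alone only 105 assignments exist, the smallest possible p is 0.00952, and no ratio passed after adjustment, with adjusted p = 0.0514 for 5 ratios and 0.0714 to 0.676 for the other 4 (exact permutation test). In these 4 lines the miR-100-5p to miR-99a-5p ratio still spanned 3.97 on the log2 scale and the miR-125a-5p to miR-125b-5p ratio 4.36. With HepG2 left out, a choice made after seeing its few miR-125b reads, 8 of the 9 ratios passed and that of miR-125a-3p to miR-125a-5p did not (exact permutation test, adjusted p = 0.111).

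**Figure D3:**
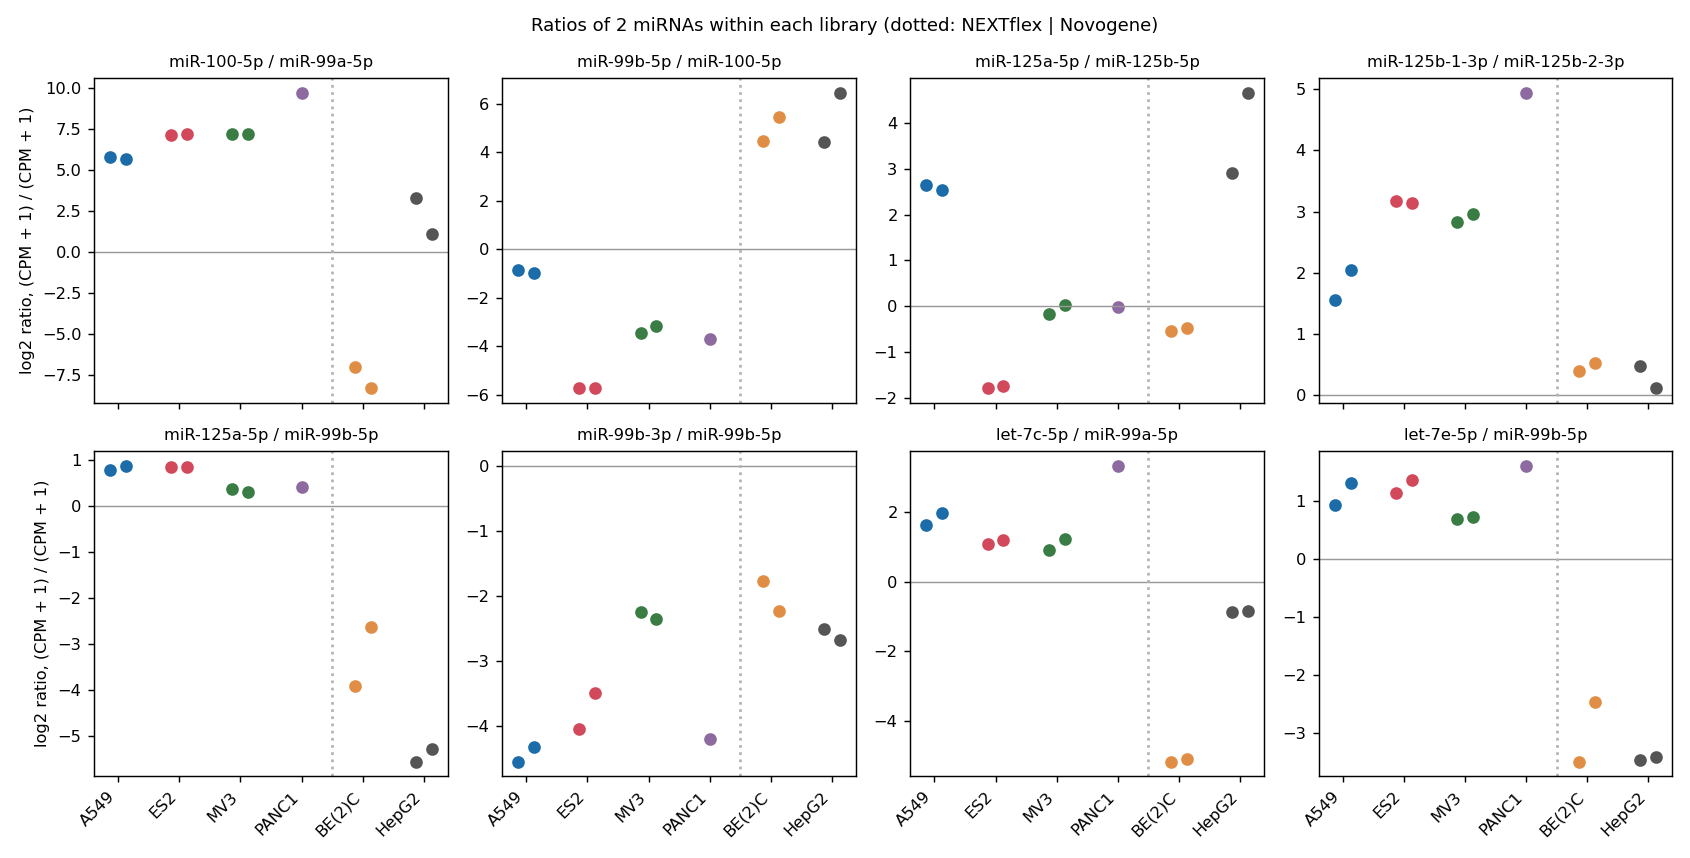
Log2 ratio of CPM plus 1 of 2 miRNAs within each library (y axis) by cell line (x axis), 1 point per library, for 8 of the 9 ratios, and a dotted line parts the NEXTflex from the Novogene lines. The ratio of miR-100-5p to miR-99a-5p lies above 0 in all lines except BE(2)C, where its mean is -7.70.

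Members of one cluster did not keep a fixed ratio. MiR-125a-5p and miR-99b-5p arise 0.728 kb apart or less on chromosome 19, and the log2 ratio of the former to the latter was 0.82 ± 0.0696 in A549, 0.84 ± 0.00123 in ES2, 0.33 ± 0.0521 in MV3 and 0.40 in PANC1, but -3.27 ± 0.895 in BE(2)C and -5.41 ± 0.196 in HepG2 (SD, n = 2 except PANC1; exact permutation test over the 6 lines, adjusted p = 0.00104). Expressed on reads, miR-125a-5p stood at 126% to 179% of miR-99b-5p in the NEXTflex lines and at 11.4% in BE(2)C and 2.31% in HepG2 (line means). Their neighbor let-7e-5p behaved alike, with log2 ratios to miR-99b-5p of 0.70 to 1.61 in the NEXTflex lines and of -2.98 ± 0.731 in BE(2)C and -3.44 ± 0.0351 in HepG2 (SD, n = 2 each; exact permutation test, adjusted p = 0.00509). On MIR99AHG, let-7c-5p exceeded miR-99a-5p in the NEXTflex lines (1.08 to 3.33) and was far below it in BE(2)C (-5.13 ± 0.0522, SD, n = 2; exact permutation test over the 6 lines, adjusted p = 0.000649). In HepG2 that ratio was -0.86 ± 0.0348 (SD, n = 2). In all 3 ratios the sign followed the preparation, which cannot be told apart from the line.

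The use of the 2 arms of a hairpin also differed. MiR-99b-3p amounted to 4.62% ± 0.496 of miR-99b-5p in A549, 7.46% ± 2.01 in ES2, 5.44% in PANC1, 20.2% ± 1.05 in MV3, 25.3% ± 5.77 in BE(2)C and 16.6% ± 1.33 in HepG2 (SD, n = 2 except PANC1; exact permutation test, adjusted p = 0.00198). MV3 stood apart from the other 3 NEXTflex lines, with no overlap between libraries. MiR-125a-3p never exceeded 5.45% of miR-125a-5p in a library. Its line means were 1.20% (A549) to 1.93% (MV3) in the NEXTflex lines, 4.43% in BE(2)C and 4.03% in HepG2. They thus followed the preparation, which cannot be told apart from the line. The ratio was called over the 6 lines (exact permutation test, adjusted p = 0.0285) but not among the NEXTflex lines (exact permutation test, adjusted p = 0.676). The call over the 6 lines did not hold without HepG2. It was also lost in 5 of the settings that leave out 1 library, A549 replicate 2, MV3 replicate 2, BE(2)C replicate 1 or either HepG2 replicate.

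Turning to levels, miR-100-5p was one of the most abundant miRNAs of 3 lines. It reached 111540 and 110750 CPM in ES2, 75284 and 64566 CPM in MV3 and 34818 CPM in PANC1, and it held rank 3 in all 4 libraries of ES2 and MV3 and rank 6 in PANC1. A549 had 9070 and 8668 CPM. BE(2)C had 391 and 166 CPM, and HepG2 84.0 and 21.3 CPM. The 6 lines did not overlap, and they followed the order ES2, MV3, PANC1, A549, BE(2)C and HepG2, although after TMM scaling (a trimmed mean that balances most miRNAs between libraries) HepG2, at 302 CPM, stood above BE(2)C, at 187 CPM. The libraries of BE(2)C and of HepG2 differed from each other by 1.23 and 1.93 on the log2 scale, the widest such gaps of this miRNA. In BE(2)C the higher value was in replicate 1, which also held more miR-122-5p (823 against 5.96 CPM) and miR-451a (299 against 46.0 CPM), and the part of other cells in this value was not tested. The BE(2)C values of miR-100-5p were 0.753% and 0.305% of those of miR-99a-5p, which differs by 1 base. Whether reads of miR-99a-5p added to them was not tested.

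MiR-99a-5p was the counterpart. BE(2)C had 51964 and 54466 CPM, ranks 6 and 5 of its libraries. ES2 had 799 and 762 CPM, MV3 532 and 451 CPM, A549 163 and 170.3 CPM, PANC1 40.9 CPM and HepG2 7.66 and 9.72 CPM. BE(2)C was thus 68.2-fold above ES2, the next line, and no lines overlapped. That fold runs across the preparations, which cannot be told apart from the line. Under TMM scaling, BE(2)C stayed highest (34797 CPM), whereas HepG2 (45.4 CPM) moved above PANC1 (23.2 CPM).

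MiR-99b-5p varied least. BE(2)C had 8719 and 7386 CPM, MV3 6943 and 7249 CPM, A549 4961 and 4419 CPM, PANC1 2692 CPM, ES2 2131 and 2086 CPM and HepG2 1817 and 1953 CPM. The highest line mean was 4.27-fold the lowest, against 6123-fold for miR-99a-5p and 2110-fold for miR-100-5p, and under TMM these folds were 6.53, 1499.95 and 451. This order depended on the scale, since HepG2 came out highest under TMM (9967 CPM, against 5296 CPM in BE(2)C). The 2110-fold of miR-100-5p (ES2 over HepG2) and the folds under TMM run across the preparations, so that they mix preparation and line. In HepG2 miR-99b-5p held rank 13 in both libraries. Its partner arm miR-99b-3p had 2562 and 1567 CPM in BE(2)C, 1456 and 1412 CPM in MV3, 319 and 306 CPM in HepG2, 212 and 219.8 CPM in A549, 129 and 185 CPM in ES2 and 147 CPM in PANC1. On this scale the BE(2)C and MV3 libraries were above all others and ES2 and PANC1 overlapped. Under TMM the mean of HepG2 (1663 CPM) stood above that of BE(2)C (1369 CPM), and ES2 and PANC1 no longer overlapped.

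MiR-125b-5p followed the line order of miR-100-5p. It had 13239.7 and 12424 CPM in ES2, 10069 and 8708 CPM in MV3, 3622 CPM in PANC1, 1353 and 1383 CPM in A549, 853 and 1648 CPM in BE(2)C and 4.12 and 0.989 CPM in HepG2. A549 and BE(2)C overlapped. MiR-125a-5p was highest in MV3 with 8979 and 8909 CPM and in A549 with 8477 and 8084 CPM, followed by ES2 with 3810.2 and 3734 CPM, PANC1 with 3557 CPM, BE(2)C with 583 and 1188 CPM and HepG2 with 37.8 and 49.5 CPM. Under TMM scaling A549 (7817 CPM) stood above MV3 (4839 CPM). MiR-125a-3p was the least abundant of the 4 chromosome 19 members, from 1.60 and 1.89 CPM in HepG2 to 135 and 209 CPM in MV3, and ES2 overlapped with both PANC1 and BE(2)C.

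The 3p arms of miR-125b stayed under 1000 CPM in all libraries. MiR-125b-1-3p had 670.4 and 799.7 CPM in MV3, 483 and 552 CPM in ES2, 444 and 422 CPM in BE(2)C, 182 CPM in PANC1, 50.6 and 37.4 CPM in A549 and 6 reads and 1 read in the HepG2 libraries. MiR-125b-2-3p had 336 and 293 CPM in BE(2)C, 93.7 and 102 CPM in MV3, 52.3 and 61.4 CPM in ES2, 16.5 and 8.25 CPM in A549, 4.92 CPM in PANC1 and 1 read and 0 reads in HepG2. BE(2)C was highest for the MIR99AHG arm but not for the MIR100HG arm.

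**Figure D4:**
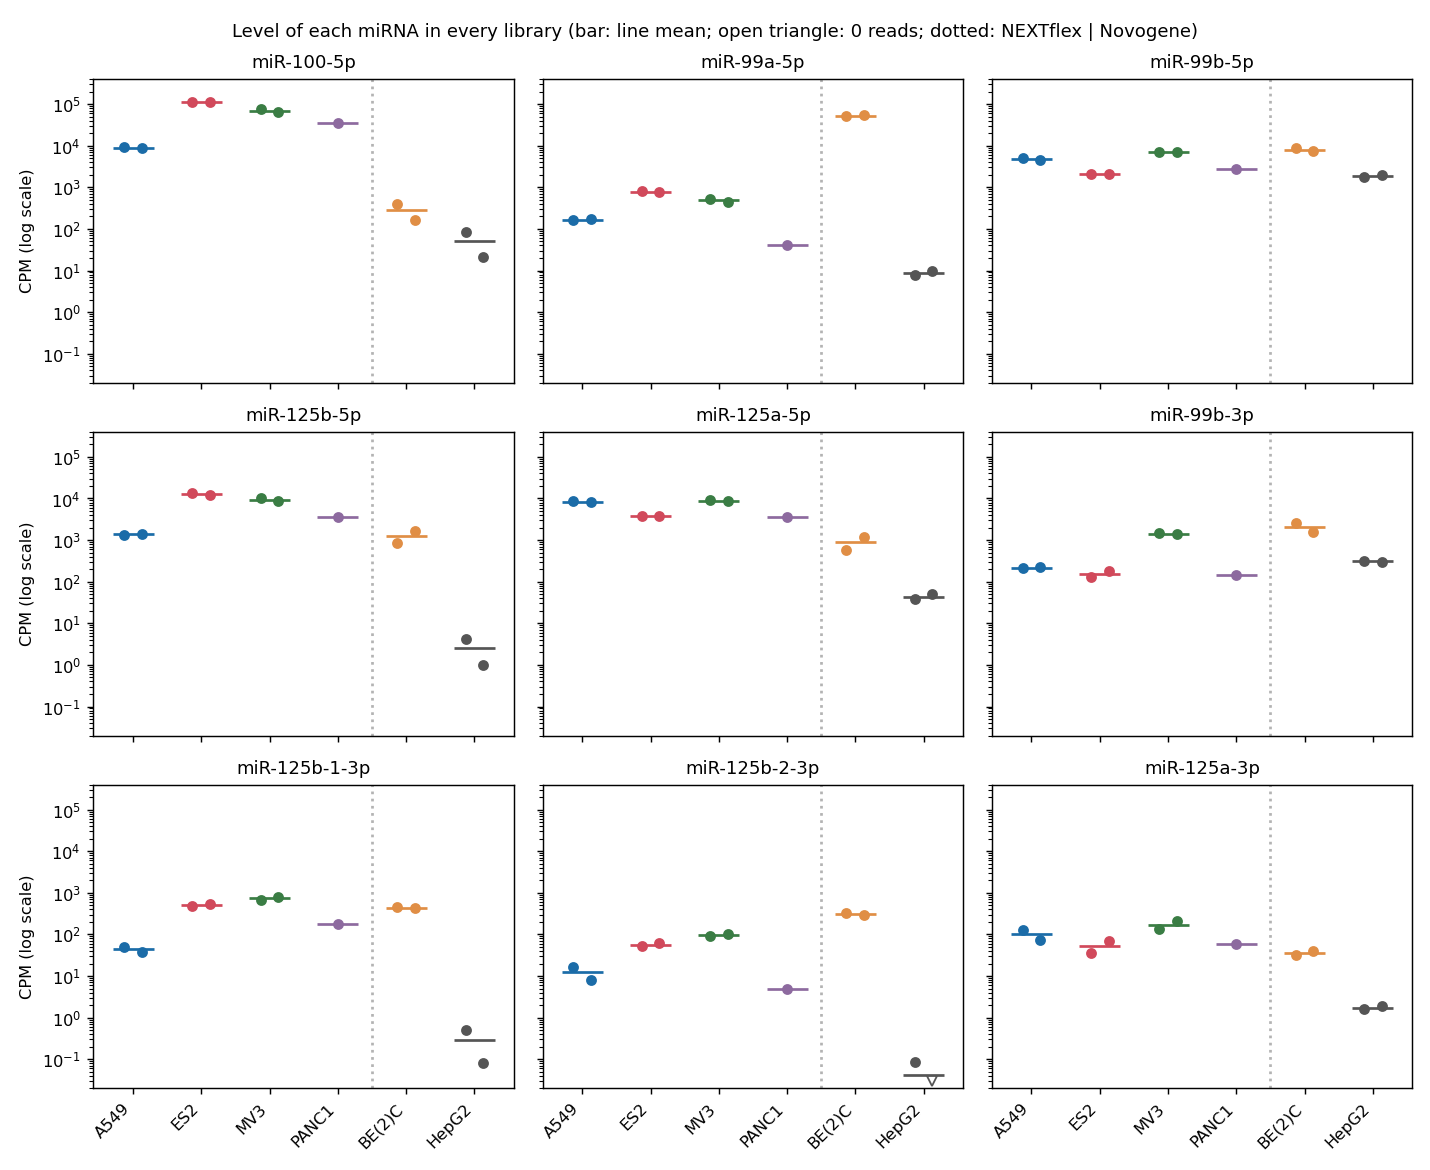
CPM on a log axis (y) in each library (points) by cell line (x), 1 panel per miRNA, where bars are line means, the open triangle is a library with 0 reads and a dotted line parts the NEXTflex from the Novogene lines. MiR-99a-5p is highest in BE(2)C, where miR-100-5p is at 391 and 166 CPM, and miR-99b-5p stays between 1817 and 8719 CPM in all libraries.

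Added up, the 9 miRNAs took 13.1% and 13.2% of all miRNA reads in ES2, 9.24% and 10.4% in MV3, 6.59% and 6.72% in BE(2)C, 4.51% in PANC1, 2.31% and 2.44% in A549 and 0.227% and 0.234% in HepG2. Reads that mark MIR100HG (miR-100-5p and miR-125b-1-3p) were 84.7% and 85.2% of the members' reads in ES2 and 0.877% and 1.27% in BE(2)C. Reads that mark MIR99AHG (miR-99a-5p and miR-125b-2-3p) were 79.4% and 81.5% in BE(2)C and at most 0.774% elsewhere. Those of chromosome 19 were 55.5% and 56.4% in A549, 95.8% and 98.6% in HepG2 and 4.62% to 19.2% in the other 4 lines. In CPM the chromosome 19 cluster spanned 2243 (HepG2) to 17647 (MV3), a narrower range than 53.0 to 111663 for MIR100HG and 8.73 to 53529 for MIR99AHG (line means).

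The levels were compared with limma on log2(CPM + 1), which understates changes of weakly detected miRNAs, over the 546 miRNAs that reached a mean of 10 CPM in 1 or more lines. All 9 members passed this filter, and all 9 differed across the 6 lines at an adjusted p under 0.05, where 99.3% of the tested miRNAs did. Across the 4 NEXTflex lines 8 of 9 did, against 85.4% of 453 tested miRNAs, and miR-125a-3p did not (limma, adjusted p = 0.0641). Such counts are close to the background and say little of these miRNAs in particular. Of the other 8 arms of the clusters, 7 could be tested and all 7 differed in both fits. MiR-99a-3p did not reach the filter.

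Within the NEXTflex lines, A549 had less of the MIR100HG and MIR99AHG products than ES2 and more of 2 chromosome 19 products. In this comparison 7 of the 9 members were called, 2 higher in A549 and 5 higher in ES2, against 50.5% of all tested miRNAs, of which 23.6% were higher in A549 and 26.9% higher in ES2. MiR-100-5p was lower in A549 by a log2 difference of -3.65 ± 0.607 (SE; limma, adjusted p = 0.00154), miR-125b-1-3p by -3.54 ± 0.243 and miR-99a-5p by -2.22 ± 0.165, whereas miR-99b-5p was higher by 1.15 ± 0.140 and miR-125a-5p by 1.13 ± 0.307 (SE; limma, adjusted p = 0.0167). The median difference of the members was -2.18, against -0.17 for all tested miRNAs (0 under TMM). The call of miR-125a-5p was lost without any 1 of the 4 libraries of these lines, where the difference was 1.10 to 1.17. It was also lost without the 10 CPM filter (limma, adjusted p = 0.0584). The call of miR-125b-2-3p was lost with totals that leave out miR-21-5p and miR-148a-3p (-1.22; limma, adjusted p = 0.0651). Of the 7 further arms tested, 5 were higher in ES2, among them miR-100-3p and let-7a-2-3p of MIR100HG, and let-7e-5p of chromosome 19 was higher in A549.

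All 7 members called between A549 and MV3 were higher in MV3, against 57.3% of all tested miRNAs called in either direction and 37.4% called higher in MV3. The largest differences (A549 minus MV3) were those of miR-125b-1-3p, -4.04 ± 0.243, miR-100-5p, -2.97 ± 0.607, and miR-125b-2-3p, -2.96 ± 0.338 (SE). MiR-99b-5p was called with the small difference of -0.60 ± 0.140 (SE; limma, adjusted p = 0.00773), which was no longer called and turned to 0.20 under TMM, 0.33 with totals that leave out miR-21-5p and miR-148a-3p and 0.48 in DESeq2. MiR-125a-5p (-0.11 ± 0.307) and miR-125a-3p (-0.80 ± 0.410) were not called, but DESeq2 called miR-125a-5p higher in A549, by 0.97 (DESeq2, adjusted p = 0.000178). Of all tested miRNAs, 109 were called higher in A549 and 204 in MV3, a split that became 147 and 115 under TMM.

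Between ES2 and MV3, which resembled each other in miR-100-5p, 5 members were called, against 32.8% of all tested miRNAs (8.97% higher in ES2 and 23.8% in MV3, which under TMM became 70 and 78 miRNAs in place of 49 and 130). The 4 chromosome 19 members were higher in MV3, with differences (ES2 minus MV3) of -3.21 ± 0.262 for miR-99b-3p, -1.75 ± 0.140 for miR-99b-5p, -1.72 ± 0.410 for miR-125a-3p and -1.25 ± 0.307 for miR-125a-5p (SE; limma, adjusted p between 7.07e-05 and 0.0172). MiR-99a-5p was higher in ES2 by 0.67 ± 0.165 (SE; limma, adjusted p = 0.0172). It stood at 0.716% and 0.688% of miR-100-5p in the ES2 libraries and at 0.706% and 0.699% in those of MV3. Whether reads of miR-100-5p, which differs by 1 base, added to the miR-99a-5p counts was not tested. The calls of miR-125a-5p, miR-125a-3p and miR-99a-5p were each lost in settings that left out 1 library of these lines, for miR-125a-5p with any of the 4, and those of miR-125a-5p and miR-125a-3p also under TMM. The SE of miR-100-5p (0.607) and miR-125b-5p (0.451) are shared by all lines, BE(2)C and HepG2 included. A fit of the 7 NEXTflex libraries alone, added after seeing these values, called miR-100-5p (0.67 ± 0.0845, SE) and miR-125b-5p (0.45 ± 0.0840, SE) higher in ES2 too, and 7 members in all. The count fell to 2 without ES2 replicate 1 or without MV3 replicate 2, to 3 without ES2 replicate 2 and to 3 under TMM.

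PANC1 had 1 library, so that its own spread was not measured, and the SE and p-values here assume that it varies like the other lines, BE(2)C and HepG2 included. Against A549, 4 members were called (background 43.8%, of which 31.9% higher in PANC1 and 11.9% higher in A549), with miR-125b-1-3p higher in PANC1 by 2.04 ± 0.298 (SE) and miR-99a-5p, miR-125a-5p and miR-99b-5p lower by -2.00 ± 0.202, -1.22 ± 0.376 and -0.80 ± 0.171 (SE). Under TMM the miR-125b-1-3p difference was 1.31 and not called (limma, adjusted p = 0.107), and the split of all calls changed from 174 higher and 65 lower in PANC1 to 97 and 100. The call of miR-125a-5p was lost without any 1 library of A549, ES2 or MV3, with the replicate block and without the 10 CPM filter. Against ES2, 4 members were called, all lower in PANC1 (background 57.3%, of which 21.8% lower in PANC1), miR-99a-5p with -4.22 ± 0.202, miR-125b-2-3p with -3.28 ± 0.414, miR-125b-5p with -1.82 ± 0.553 and miR-125b-1-3p with -1.50 ± 0.298 (SE). The call of miR-125b-5p was lost without either ES2 library and without the filter. Both this call and that of miR-125b-1-3p were lost with a pseudocount of 0.1 and with totals that leave out miR-21-5p and miR-148a-3p. Against MV3, 7 members were called, all lower in PANC1 (background 53.1%, of which 25.6% lower in PANC1), and miR-100-5p (limma, adjusted p = 0.297) and miR-125b-5p (-1.37 ± 0.553, SE) were not. The call of miR-125a-3p was lost under TMM, in DESeq2, with the replicate block, with a pseudocount of 0.1 and without the 10 CPM filter. It was also lost in the NEXTflex libraries alone and without MV3 replicate 2, either BE(2)C library or either HepG2 library. That of miR-125a-5p was lost without the filter and without either MV3 library. MiR-100-5p and miR-125b-5p, not called against MV3 above, were called lower in PANC1 in the NEXTflex libraries alone. Their SE above include the spread of BE(2)C and HepG2, so that the missing calls do not show equal levels. Against A549 and ES2, too, more members were called in that fit than above. PANC1 still had 1 library there, so that its own spread stayed unmeasured. The MIR99AHG products miR-99a-5p and miR-125b-2-3p had the lowest line means of the NEXTflex lines in PANC1.

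Between the Novogene lines, all 9 members were called higher in BE(2)C than in HepG2, against 83.0% of all tested miRNAs called and 74.7% called in this direction. MiR-99a-5p differed most, by 12.43 ± 0.165 (SE; limma, adjusted p = 1.53e-09), followed by miR-125b-5p with 8.54 ± 0.451 (SE). For the 3p arms of miR-125b the fitted values depend on the pseudocount. As a ratio of reads per total reads, miR-125b-1-3p (6106 reads in BE(2)C, 7 in HepG2) was 1490.0-fold higher, with an exact 95% counting interval of 723 to 3708, and miR-125b-2-3p (4438 reads and 1 read) 7581-fold, with an interval of 1360 to 299493. These folds and intervals depend on the library totals, of which miR-148a-3p took most in HepG2, and under TMM the ratios of the line means were 166 and 815, below both intervals. MiR-125a-5p and miR-125a-3p were higher by 4.23 ± 0.307 and 3.75 ± 0.410 (SE). The differences of miR-99b-5p (2.09 ± 0.140), miR-99b-3p (2.68 ± 0.262) and miR-100-5p (2.56 ± 0.607, SE) were smaller than the median of all tested miRNAs, 2.79, and they turned to -0.92, -0.33 and -0.42 under TMM, where that median was 0.49. MiR-99b-5p was then called higher in HepG2, and the split of all calls changed from 408 higher and 45 lower in BE(2)C to 226 and 125. The other 6 members were called higher in BE(2)C under TMM and DESeq2 as well, but with totals that leave out miR-21-5p and miR-148a-3p the differences of miR-125a-5p (0.69) and miR-125a-3p (0.76) were not called, and both miR-99b-5p (-1.48) and miR-99b-3p (-0.89) were called higher in HepG2. Without BE(2)C replicate 1, which held more miR-122-5p, that of miR-100-5p was 1.94 and not called (limma, adjusted p = 0.0535).

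**Figure D5:**
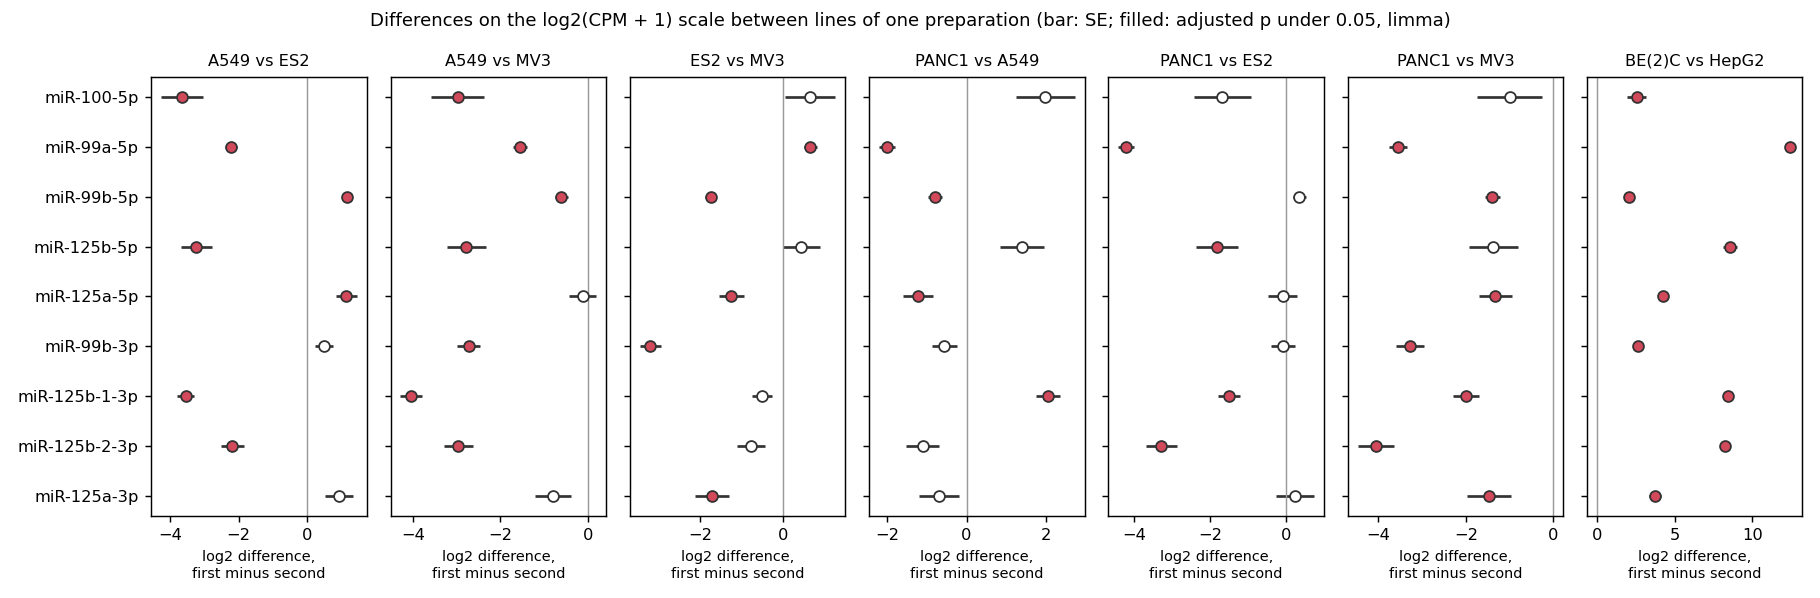
Log2 difference on the log2(CPM + 1) scale, first line minus second (x axis), of each of the 9 miRNAs (y axis) in the 7 comparisons between lines of one preparation, with SE as bars and filled points for a limma adjusted p under 0.05. In ES2 against MV3 the 4 chromosome 19 miRNAs lie to the left of 0, and in BE(2)C against HepG2 all 9 lie to the right, where those of miR-99b-5p, miR-99b-3p and miR-100-5p change sign under TMM scaling.

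Limma contrasts across the preparations are given as counts only. Of the 9 members, 8, 7 and 7 were called between A549, ES2 or MV3 and BE(2)C (background 76.7%, 77.5% and 78.0%), and 8, 8 and 9 between these lines and HepG2 (background 67.6%, 60.8% and 69.6%).

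The other arms of the clusters gave further values by locus. MiR-100-3p, the partner arm of miR-100-5p, was at 79.4 and 72.3 CPM in ES2, 71.6 and 82.0 CPM in MV3, 12.3 CPM in PANC1 and 4.49 and 0.971 CPM in A549, and it had 0 reads in the libraries of BE(2)C and HepG2. The let-7a-2-3p arm of MIR100HG had 40.9 and 30.9 CPM in ES2, 21.3 and 12.3 CPM in MV3 and 7.08 CPM in PANC1, but only 0 and 6 reads in A549, 0 and 1 in BE(2)C and 0 in HepG2. Both arms were thus highest in the lines with most miR-100-5p. Let-7c-3p of MIR99AHG had 6.38 and 14.7 CPM in BE(2)C and 0 reads in PANC1 and HepG2, and with 4.36 to 12.3 CPM in ES2 and MV3 it overlapped with BE(2)C, unlike miR-99a-5p. Let-7a-5p is encoded at 3 loci and cannot be assigned to MIR100HG.

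Over the 6 line means of log2(CPM + 1), the members of one cluster were not always the closest. MiR-99a-5p and miR-125b-2-3p of MIR99AHG had a Pearson correlation of 0.935, miR-100-5p and miR-125b-1-3p of MIR100HG of 0.706, and miR-99b-5p and miR-125a-5p of chromosome 19 of 0.425, while miR-125a-5p and its 3p arm had 0.979. MiR-100-5p and miR-99a-5p had 0.0205. Among 530 other tested miRNAs, the pattern of miR-100-5p was most like that of miR-29a-3p (r = 0.998), miR-590-3p (0.990) and let-7d-5p (0.988), that of miR-99a-5p like those of miR-218-5p (0.976), miR-331-3p (0.952) and miR-139-3p (0.946), and that of miR-99b-5p like those of miR-137 (0.966), miR-2682-3p (0.954) and miR-1180-3p (0.943). With 6 points that share libraries, totals and preparation, these values are descriptive.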

How the data were processed

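Small RNA-seq of 11 libraries from 6 parental lines was analysed, grouped by the cell line label. The submitters' processing notes name cutadapt 1.14, Bowtie2 2.3.2, SAMtools 1.5, featureCounts 1.5.3, edgeR 3.30.3 and the build hg38, and settings for small RNA are not given in the sources used here. The authors deposited CPM for PANC1 and, for the other 5 lines, a signal, namely CPM divided by a factor set within each table of 2 libraries. In each library 100% of the deposited values were whole multiples of 1 read (relative tolerance 0.0001), so that reads were recovered, rows of one name summed and CPM recomputed per library total. As units differed from the CPM assumed in the design, the recomputed CPM was tested as planned.

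MiRNAs that reached a mean of 10 CPM in 1 or more lines were tested with limma 3.58.1 (R 4.3.3) on log2(CPM + 1), with line as the only factor, trended eBayes and two-sided contrasts at a Benjamini-Hochberg adjusted p under 0.05 over all tested miRNAs. Ratios were tested with exact permutation tests coded in Python with numpy 2.4.6, and the Wilson and exact counting intervals were computed with scipy 1.17.1. Scripts were tested on simulated data. Alternatives were TMM factors, totals without miR-21-5p and miR-148a-3p, the deposited values, pseudocounts of 0.1 and 10, no filter or 100 CPM, edgeR 4.0.16 quasi-likelihood and DESeq2 1.42.0 on recovered reads, a replicate block, the highest copy of miR-125b-5p and leaving out each library. Named were the 9 members, the 8 other arms of the clusters and the 3 miRNAs most correlated with each miR-99/100 member. Members, marker lists and tests were chosen with earlier results of these data known.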

Additional observations from a re-analysis of the deposited data

How the results depend on the processing

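Of 207 recomputed counts of members and ratios, 194 kept the call, or the count within 1.5 times, and of 257 with 1 library left out 249 did. Counts of members that moved were 3 for ES2 against MV3 under TMM (2 to 6 without 1 library), 7 for PANC1 against A549 in DESeq2 and 2 for PANC1 against ES2 with a pseudocount of 0.1. Without 1 library the range of the miR-125a-3p to miR-125a-5p ratio over the lines was 2.18 to 2.74 on the log2 scale, and 1.91 without HepG2. It also depended on the pseudocount, with 1.89 at 0.1, 2.40 at 1 and 4.10 at 10 (exact permutation test, adjusted p = 0.0426, 0.0285 and 0.00866). The highest line was BE(2)C at 0.1 and HepG2 at 1 and 10. In the NEXTflex lines alone the ranges of the 9 ratios, none past the threshold with 105 assignments, were 3.97 (miR-100-5p to miR-99a-5p), 4.80 (miR-99b-5p to miR-100-5p), 4.36 (miR-125a-5p to miR-125b-5p), 3.14 (miR-125b-1-3p to miR-125b-2-3p), 0.50 (miR-125a-5p to miR-99b-5p), 2.13 (miR-99b-3p to miR-99b-5p), 0.69 (miR-125a-3p to miR-125a-5p), 2.25 (let-7c-5p to miR-99a-5p) and 0.91 (let-7e-5p to miR-99b-5p).

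Log2 differences that changed sign were, under TMM, totals without miR-21-5p and miR-148a-3p, and DESeq2 in that order, for BE(2)C against HepG2 -0.42, -0.98 and -0.72 (miR-100-5p), -0.33, -0.89 and -0.38 (miR-99b-3p) and -0.92, -1.48 and -1.04 (miR-99b-5p), and for A549 against MV3 0.69, 0.82 and 0.97 (miR-125a-5p) and 0.20, 0.33 and 0.48 (miR-99b-5p). MiR-125a-3p, A549 against MV3, had 0.12 with those totals and 0.29 in DESeq2. For PANC1 against ES2, where none of the values that changed sign was called, miR-125a-3p had -0.17 under TMM and -0.21 without ES2 replicate 1, miR-125a-5p 0.038 with those totals, miR-99b-3p 0.047 with those totals and -0.34 to 0.19 without either ES2 replicate, and miR-99b-5p -0.065 under TMM, although with those totals it kept its sign and was called higher in PANC1 (0.48; limma, adjusted p = 0.0445). The cause of these changes was not tested.

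Deviations of same-numbered libraries correlated by more than 0.1 in 1 of 10 line pairs (-0.0531 to 0.109), that of BE(2)C and HepG2, both made by Novogene. Whether same-numbered libraries share a batch was not tested. With the replicate block 3 members were called for PANC1 against A549, 5 against ES2 and 6 against MV3, and miR-125a-5p in PANC1 against ES2 had 0.045. The fit of the NEXTflex libraries alone and the ratios without HepG2 were added after seeing the data.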
